A study of Homo sapiens with 12 samples.

Results

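The 36 genes described here encode proteins that bind the short RNAs made by RNA polymerase III (Pol III). They were taken as a list of names from 35036 genes with a matched transcript, and the list was chosen with earlier results of these data known. They comprise 11 proteins of RNase P and RNase MRP, 6 of the signal recognition particle, 7 of the LSM ring on U6 RNA, 7 of the 7SK particle and its kinase P-TEFb, La and Ro, and 3 vault proteins. Their mRNAs were measured in 12 messenger RNA libraries of HEK293T, an established and readily transfected human embryonic kidney line, in 4 groups of 3. Cells were transfected with the control siRNA (siControl) or with an siRNA against the largest Pol III subunit (siPOLR3A) for 2 days, or received 0.1% DMSO or 25 µM ML60218, a small-molecule inhibitor of Pol III, for 4 hours. The cell line label of all 12 libraries reads HEK293T, while the titles of the DMSO and ML60218 libraries give the name of the line in a shortened form that the siRNA libraries do not use. The labels name no batch, and they do not say whether the 3 libraries of a group came from separate cultures, so p-values measure the spread between these libraries, which may be technical.

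Pol III makes U6, 7SK, Y, vault and 7SL RNA and the RNA subunits of RNase P and RNase MRP, and these RNAs work only inside particles with proteins whose own mRNAs are made by Pol II. RNase P trims the leader of precursor tRNAs, the related RNase MRP cuts precursor ribosomal RNA, and the signal recognition particle brings ribosomes that make secreted proteins to the endoplasmic reticulum. The LSM ring holds the U-rich end of U6 in the spliceosome, the 7SK particle stores P-TEFb in an inactive form, La binds the terminal U residues of new Pol III transcripts, and Ro binds Y RNAs. Libraries of messenger RNA do not give the level of the Pol III RNAs themselves, and these RNAs are not reported here.

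The libraries held between 37008325 and 49479476 estimated reads, and between 15445 and 15900 genes had at least 10 reads in a library. The mRNA of POLR3A was at 89.9, 91.2 and 84.7 CPM (read counts scaled to library size) in siControl and at 18.8, 18.6 and 14.2 in siPOLR3A, so the target was depleted in every siPOLR3A library. Counts of replicate libraries differed by more than sampling noise in every pair, with a chi-square per degree of freedom from 3.255 to 21.64, the highest between replicates 1 and 3 of ML60218. Of 5 epithelial markers 4 reached 1 TPM (a level corrected for transcript length) and KRT19 did not. Of 5 embryonic kidney markers 4 reached it and PAX8 did not. Of 7 adult kidney tubule markers 1 reached it (LRP2), and neither of the 2 blood markers did. Summed marker levels also moved with siPOLR3A, and several of them with ML60218. The 3 neuronal filament genes summed to 164.78 to 189.29 TPM in siControl and 88.54 to 93.04 in siPOLR3A (124.84 to 132.99 in DMSO and 146.37 to 162.01 in ML60218), and after siPOLR3A NEFL and NEFM fell while INA rose. The 2 mesenchymal genes summed to 421.98 to 439.54 TPM in siControl and 309.28 to 319.42 in siPOLR3A (400.72 to 431.81 in DMSO and 449.68 to 500.51 in ML60218). The 3 fibroblast genes summed to 20.69 to 22.42 and 25.06 to 28.86 TPM, and the 5 epithelial genes to 34.2 to 36.32 and 38.29 to 41.13, in siControl and siPOLR3A. Among the fibroblast genes COL1A1 rose, PDGFRA fell and COL1A2 stayed below 1 TPM. Among the epithelial genes KRT18, EPCAM and CDH1 rose, while KRT8 had a log2 fold change of -0.56 and was not called. The 5 embryonic kidney genes summed to 34.81 to 38.89 TPM in siControl and 34.49 to 40.07 in siPOLR3A, where WT1 fell and SIX2 rose. They summed to 39.22 to 41.88 TPM in DMSO and 34.16 to 35.98 in ML60218, where LHX1 and SIX2 fell. The epithelial genes summed to 39.23 to 40.77 TPM in DMSO and 42.76 to 45.33 in ML60218, where KRT8 rose. The fibroblast sums of DMSO (18.91 to 20.46) and ML60218 (19.62 to 21.56) overlapped. The part of these shifts in the results below was not tested.

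After siPOLR3A the mRNAs of the U6 ring, of RNase P and RNase MRP, of the signal recognition particle and of the 7SK particle included both rises and falls, whereas the 3 vault mRNAs fell and La and Ro were not called. Of the 36 mRNAs, 12 rose and 13 fell, with a median log2 fold change of -0.01 against 0.01 over all genes tested. Falls were the larger changes, led by LSM2 of the U6 ring, RPP25L of RNase P and MRP, MVP of the vault and SRP19 of the signal recognition particle, and rises were led by LSM7 and LSM3 of the same U6 ring and by the kinase CDK9. All changes were called with edgeR's quasi-likelihood test at a Benjamini-Hochberg adjusted p under 0.05 over 15685 genes, of which 57.7% were called, 27.9% higher and 29.7% lower, so that calls were frequent among all genes. The CPM of the groups did not overlap for 28 of the 36 members, against 63.8% of all genes tested. Upper quartile scaling gave 15 members higher and 9 lower (5500 and 3743 of all genes, against 4379 and 4665 here), and scaling to total counts gave 14 and 9 (5238 and 3883 of all genes). Under those scalings the falls of SRP68, MEPCE, CCNT2 (log2 from -0.06 to -0.04) and TEP1 (-0.13 to -0.12) were not called, and with DESeq2 RPP21, LSM5, SRP54 and MEPCE were not (adjusted p between 0.078 and 0.141).

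ML60218 lowered most of the members whose mRNA it changed. Of the 36 mRNAs, 20 fell and 2 rose (CCNT1 and TEP1), with a median log2 fold change of -0.15 against 0.01 over all genes tested. The falls were under 2-fold, and HEXIM1, POP4 and LSM3 had the largest. Over 15730 genes the same test called 39.9%, with 18.6% higher and 21.3% lower. The groups did not overlap for 28 of the 36 members, against 52.4% of all genes tested. Upper quartile scaling gave 6 members higher and 15 lower (3655 and 2478 of all genes, against 2923 and 3350 here), scaling to total counts 7 and 14 (4097 and 1992), and removal of trends with GC content and length 1 and 23 (2175 and 4175). Of the 20 members that fell, 15 had their lowest CPM in replicate 3 of ML60218. Without that library 23 members were called, 21 of them lower.

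**Figure D1:**
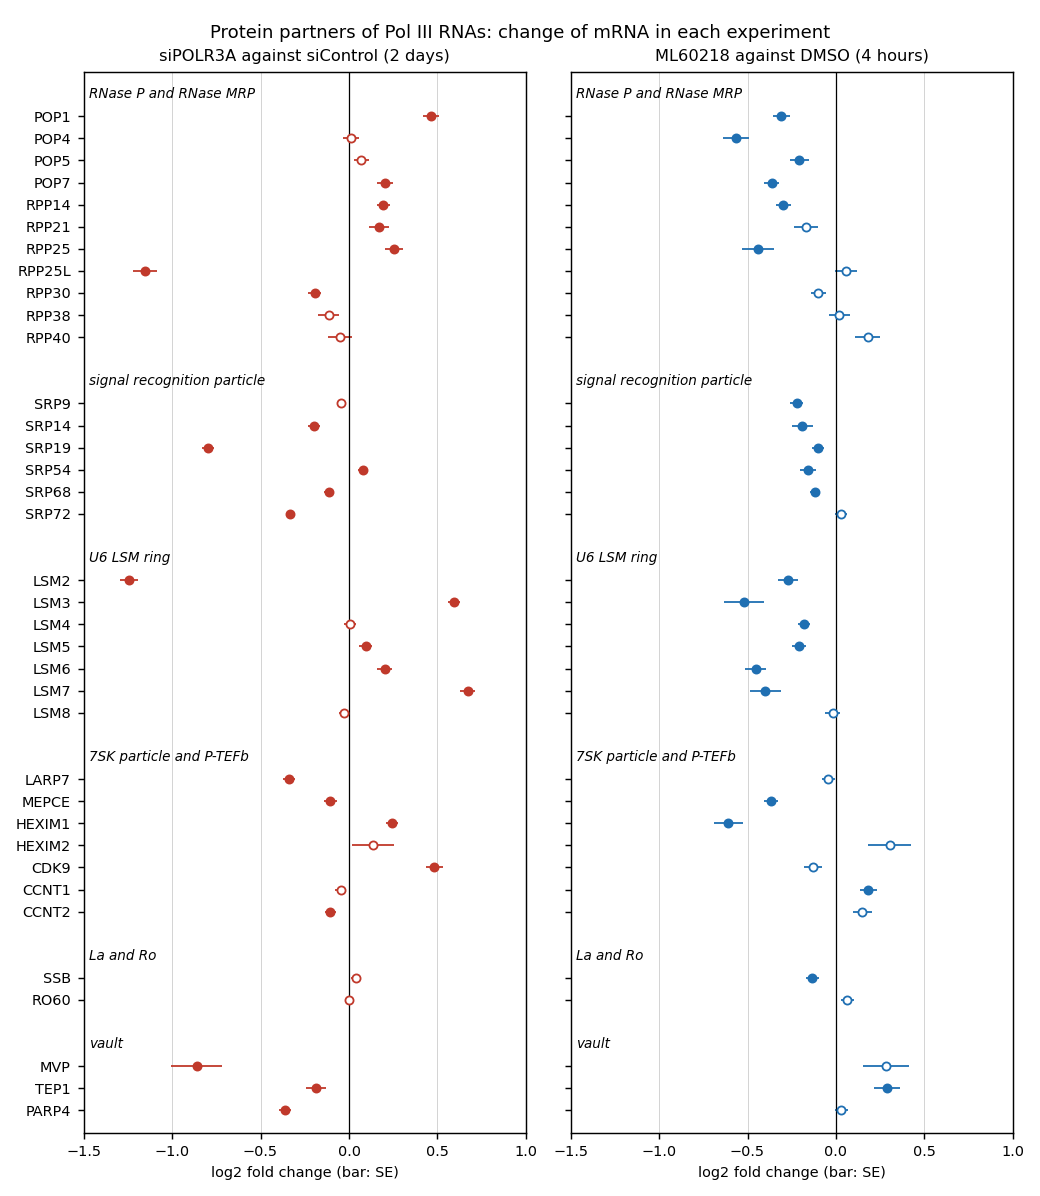
Log2 fold change of each member's mRNA after siPOLR3A (left) and after ML60218 (right), by particle, with its standard error as a bar. Filled points passed an adjusted p under 0.05 and open points did not; LSM2 and RPP25L lie past a 2-fold fall on the left, and on the right 20 of the 22 filled points lie below 0.

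The U6 LSM ring is built from 7 different proteins, LSM2 to LSM8, that are assembled in equal number. LSM2 fell while LSM3, LSM5, LSM6 and LSM7 rose after siPOLR3A, and LSM4 and LSM8 did not pass the test, with log2 fold changes of 0.01 and -0.03. The LSM2 gene (chr6:31797396-31806984, minus strand, GRCh38) was at 29.4, 30.4 and 29.7 CPM in siControl and at 12.7, 13.0 and 12.1 in siPOLR3A, a 2.36-fold fall (log2 -1.24, SE 0.050, adjusted p = 6.67e-12). The 3 siPOLR3A libraries lay together and far below the controls. LSM7 was at 23.8, 24.3 and 25.8 CPM in siControl and at 39.5, 39.8 and 38.4 in siPOLR3A (log2 0.67, SE 0.044). LSM3 was at 55.9, 55.5 and 60.6 CPM in siControl and at 85.9, 86.0 and 87.8 in siPOLR3A (log2 0.59, SE 0.036). Neither pair of groups overlapped. LSM6 was at 25.4, 26.8 and 26.0 CPM in siControl and at 30.2, 30.3 and 29.4 in siPOLR3A (log2 0.20, SE 0.043), a smaller rise with no overlap. The rise of LSM5 was 0.09 on the log2 scale (adjusted p = 0.0306) and was lost when siControl replicate 1 or 3 or siPOLR3A replicate 1 or 2 was left out, with adjusted p between 0.062 and 0.131.

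After ML60218 6 of the 7 ring mRNAs fell, where 21.3% of all genes tested were called lower. LSM8 did not pass the test (log2 -0.02). LSM1, which takes the place of LSM8 in a cytoplasmic ring, fell by 0.37 on the log2 scale. The falls thus cannot be read as particular to the U6 ring. LSM3 was at 121.5, 120.9 and 120.5 CPM in DMSO and at 96.5, 87.1 and 70.2 in ML60218 (log2 -0.52, SE 0.114, adjusted p = 0.016). The ML60218 libraries were all below DMSO but unequal among themselves, and without DMSO replicate 1 the adjusted p was 0.053. LSM6 was at 33.4, 33.3 and 35.0 CPM in DMSO and at 26.7, 22.9 and 24.7 in ML60218 (log2 -0.45, SE 0.060). LSM7 was at 43.6, 44.6 and 44.2 CPM in DMSO and at 36.3, 36.001 and 28.4 in ML60218 (log2 -0.40, SE 0.087). Replicate 3 of ML60218 was again the lowest for LSM7, whereas replicate 2 was the lowest for LSM6. LSM2, the ring protein that fell after siPOLR3A, was at 41.3, 39.1 and 39.1 CPM in DMSO and at 34.5, 34.0 and 30.5 in ML60218 (log2 -0.27, SE 0.056). LSM4 and LSM5 fell by 0.18 and 0.21 on the log2 scale.

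LSM2 and the RNase P protein RPP21 lie in the major histocompatibility region of chromosome 6, for which the reference holds several alternative haplotypes. Transcripts of these alternative copies carried 99.5% of the reads assigned to LSM2 and 99.8% of those assigned to RPP21. With transcripts of the primary assembly alone, 34 of the 36 members could be tested, without LSM2 and RPP21. Of these, 23 were called after siPOLR3A and 21 after ML60218, where 8718 and 6028 of all genes were called.

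LSM2, LSM3 and LSM7 of the same ring moved in different directions after siPOLR3A, and HEXIM1 fell most after ML60218, so their promoters are shown from 250 bases before to 50 bases after the RefSeq start (GRCh38.p14). Capitals mark matches on either strand, which may overlap. The TATA box was searched as TATAAA. For the CCAAT box the letters of its name were used. The GC box was searched as GGGCGG. For ETS factors the letters CCGGAAGT were used. The NRF1 search used GCATGCGC. The B box of tRNA-type Pol III promoters was searched as GTTCGANNC.
LSM2 promoter, chr6:31806917-31807216, minus strand: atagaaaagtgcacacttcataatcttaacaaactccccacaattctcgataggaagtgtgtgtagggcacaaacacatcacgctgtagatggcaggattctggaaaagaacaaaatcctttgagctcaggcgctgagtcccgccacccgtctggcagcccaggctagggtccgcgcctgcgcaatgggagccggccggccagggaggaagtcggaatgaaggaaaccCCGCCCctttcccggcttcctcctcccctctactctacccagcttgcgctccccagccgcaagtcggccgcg
LSM3 promoter, chr3:14178567-14178866, plus strand: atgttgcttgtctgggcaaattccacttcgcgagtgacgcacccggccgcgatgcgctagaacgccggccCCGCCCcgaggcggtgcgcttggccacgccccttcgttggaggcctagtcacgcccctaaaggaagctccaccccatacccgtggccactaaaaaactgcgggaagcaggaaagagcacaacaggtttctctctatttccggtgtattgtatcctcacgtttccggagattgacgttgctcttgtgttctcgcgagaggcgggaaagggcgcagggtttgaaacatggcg
LSM7 promoter, chr19:2328537-2328836, minus strand: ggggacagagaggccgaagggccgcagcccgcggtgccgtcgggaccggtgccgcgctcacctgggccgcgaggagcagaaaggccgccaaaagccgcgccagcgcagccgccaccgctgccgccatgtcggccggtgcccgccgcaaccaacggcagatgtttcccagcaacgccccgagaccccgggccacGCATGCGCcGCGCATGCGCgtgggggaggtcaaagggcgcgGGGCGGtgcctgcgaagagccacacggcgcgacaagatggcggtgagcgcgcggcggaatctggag
HEXIM1 promoter, chr17:45148225-45148524, plus strand: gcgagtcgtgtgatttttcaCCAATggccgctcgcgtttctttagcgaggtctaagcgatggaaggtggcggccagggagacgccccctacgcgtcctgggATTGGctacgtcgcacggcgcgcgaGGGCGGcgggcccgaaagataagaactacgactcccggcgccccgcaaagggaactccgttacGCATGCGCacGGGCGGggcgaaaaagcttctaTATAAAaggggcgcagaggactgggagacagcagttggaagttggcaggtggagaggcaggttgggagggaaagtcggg
The LSM2 and LSM3 windows each held a single GC box in these letters, the LSM7 window a GC box and 3 NRF1 matches of which 2 overlap, and the HEXIM1 window a TATA box, 2 CCAAT boxes, 2 GC boxes and an NRF1 match. RefSeq windows were matched for 33 of the 36 members. GC boxes were found in 26 of the 33 (78.8%, against 45.0% of 35116 promoters in the table), CCAAT boxes in 17 (51.5%, against 34.6%), NRF1 matches in 8 (24.2%, against 3.05%) and ETS matches in 6 (18.2%, against 4.14%). TATA boxes were found in 3 (9.09%, against 11.5%), in HEXIM1, SRP14 and SSB, and B boxes in 0 (against 0.83%). The 35116 windows were not limited to the genes tested here or to a single window per gene, unlike those of the members. Shares among the genes tested were not computed, so the differences cannot be read as particular to the members. These are matches of letters and not measured binding sites.

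RNase P and RNase MRP share most of their proteins, and within this group 5 mRNAs rose and 2 fell after siPOLR3A, while 6 fell after ML60218. Over all genes tested 27.9% rose and 29.7% fell after siPOLR3A, and 21.3% fell after ML60218. POP1, the largest protein of both enzymes, was at 31.4, 35.7 and 33.3 CPM in siControl and at 46.4, 45.9 and 46.3 in siPOLR3A (log2 0.46, SE 0.044, adjusted p = 1.83e-07). In the other experiment POP1 was at 52.2, 56.2 and 52.6 CPM in DMSO and at 44.0, 44.6 and 41.5 in ML60218 (log2 -0.31, SE 0.048, adjusted p = 0.000833). POP1 thus rose with the siRNA and fell with the inhibitor, and neither pair of groups overlapped. POP7, which forms a dimer with RPP25, was at 30.6, 30.2 and 33.1 CPM in siControl and at 35.5, 36.8 and 35.9 in siPOLR3A (log2 0.20, SE 0.044). POP7 was at 39.97, 40.6 and 40.9 CPM in DMSO and at 31.5, 31.9 and 31.0 in ML60218 (log2 -0.36, SE 0.042). Its partner RPP25 moved the same ways, by 0.25 (SE 0.053) and -0.44 (SE 0.090) on the log2 scale. The rises of POP7 and RPP25 after siPOLR3A were not called once trends with GC content and length were removed (log2 0.09 and 0.10).

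RPP25L, a paralogue of RPP25, went the opposite way to RPP25 after siPOLR3A. RPP25L (chr9:34610486-34612104, minus strand) was at 17.7, 16.1 and 17.5 CPM in siControl and at 7.5, 7.4 and 8.2 in siPOLR3A, a 2.22-fold fall (log2 -1.15, SE 0.068, adjusted p = 6.67e-10). In the ML60218 experiment its groups overlapped, at 16.0, 15.02 and 15.4 CPM in DMSO and 17.1, 15.2 and 15.9 in ML60218 (log2 0.06, adjusted p = 0.515). POP4, a protein near the catalytic RNA, showed the reverse order of effects. POP4 was at 28.4, 28.3 and 29.2 CPM in siControl and at 28.0, 30.2 and 28.5 in siPOLR3A (log2 0.01, adjusted p = 0.831), so these groups overlapped. It was at 42.9, 46.5 and 45.5 CPM in DMSO and at 32.6, 32.1 and 26.8 in ML60218 (log2 -0.56, SE 0.072, adjusted p = 0.000414). Of the remaining proteins, RPP14 rose by 0.19 after siPOLR3A and fell by 0.30 after ML60218, RPP30 fell by 0.19 after siPOLR3A, and POP5 fell by 0.21 after ML60218 (0.14 and not called when scaled to total counts). RPP21 rose by 0.17 after siPOLR3A (adjusted p = 0.0204), a call lost when siControl replicate 2 or 3 or siPOLR3A replicate 1 or 2 was left out (adjusted p between 0.059 and 0.073), and its size fell to 0.04 on removal of GC and length trends and to 0.09 with an offset for isoform length. RPP38 and RPP40 passed the test in neither comparison. After ML60218 RPP40 had a log2 fold change of 0.18 (adjusted p = 0.066) and was called higher under 5 alternatives (adjusted p down to 0.0247), among them without DMSO replicate 1 or ML60218 replicate 1. RPP38 was called lower after siPOLR3A without siControl replicate 1 (log2 -0.17 against -0.11, adjusted p = 0.0272).

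**Figure D2:**
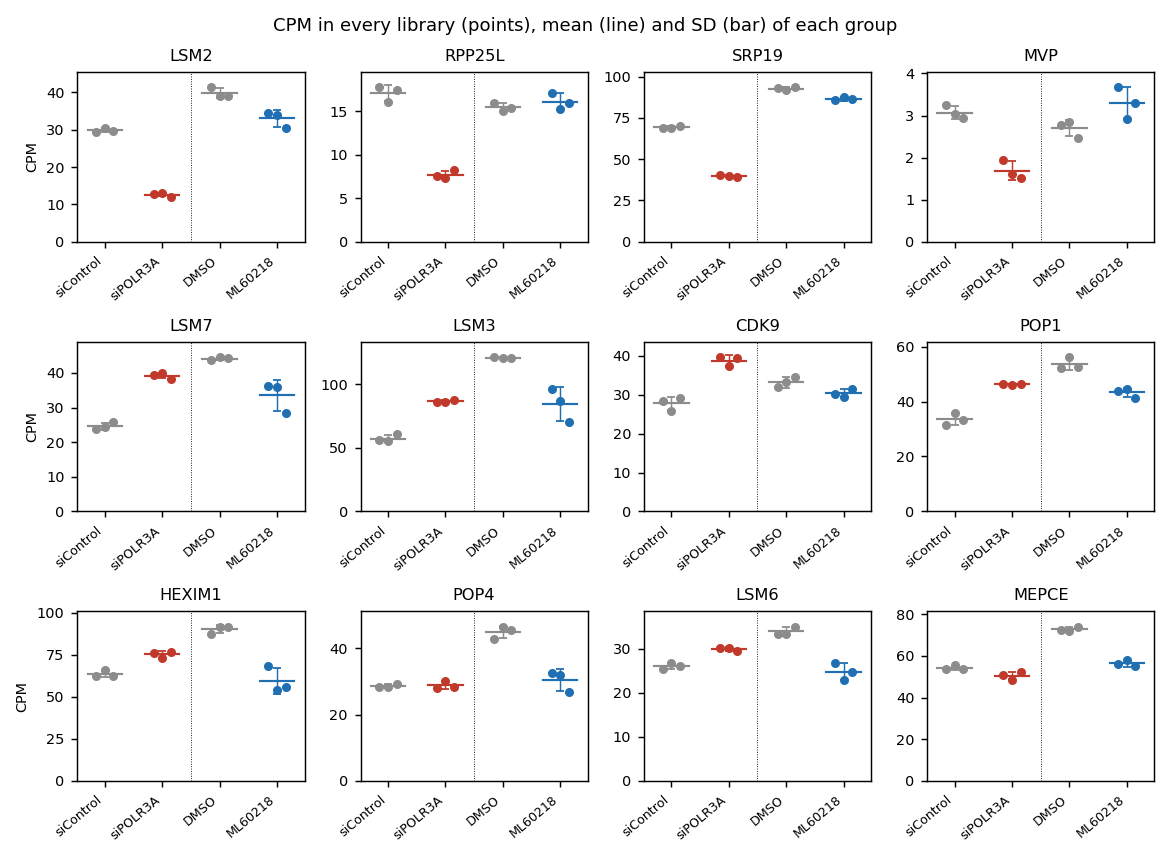
CPM of 12 members in each library, with the group mean as a line and the SD of 3 libraries as a bar; every vertical axis starts at 0, and a dotted line separates the experiments. LSM2, RPP25L, SRP19 and MVP are lowest in siPOLR3A, and the ML60218 points of LSM3 spread from 70.2 to 96.5 CPM.

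The signal recognition particle is assembled on 7SL RNA from SRP9 and SRP14, which bind the Alu end and slow translation, and from SRP19, SRP54, SRP68 and SRP72 on the other end. After siPOLR3A 4 of its 6 mRNAs fell and 1 rose, and after ML60218 5 fell. Of all genes tested, 29.7% fell and 27.9% rose after siPOLR3A, and 21.3% fell after ML60218. SRP19, which clamps 7SL RNA so that SRP54 can bind, had the largest change of the particle. SRP19 (chr5:112861188-112898371, plus strand) was at 69.0, 68.7 and 70.2 CPM in siControl and at 40.3, 39.9 and 39.4 in siPOLR3A, a 1.74-fold fall (log2 -0.80, SE 0.032, adjusted p = 6.27e-12). The size of this fall depended on the processing, with log2 fold changes from -1.14 to -0.73 under the alternatives. In TPM SRP19 was at 105.7 ± 4.64 (mean ± SD) in siControl and at 48.8 ± 3.23 in siPOLR3A. After ML60218 its change was small: 93.0, 91.8 and 93.4 CPM in DMSO against 85.6, 87.9 and 86.1 in ML60218 (log2 -0.10, SE 0.034, adjusted p = 0.0365). SRP72, which holds the particle's protein dimer with SRP68, was at 223.1, 229.0 and 229.5 CPM in siControl and at 177.4, 184.7 and 178.8 in siPOLR3A (log2 -0.33, SE 0.025). Its DMSO and ML60218 libraries overlapped, at 274.1, 271.2 and 275.6 CPM and at 272.8, 291.9 and 272.7 CPM.

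On the Alu side, SRP14 was at 122.4, 124.6 and 133.0 CPM in siControl and at 110.3, 113.1 and 108.1 in siPOLR3A (log2 -0.20, SE 0.033). It was at 138.6, 136.0 and 136.9 CPM in DMSO and at 131.4, 120.9 and 108.7 in ML60218 (log2 -0.19, SE 0.060, adjusted p = 0.0339), and without replicate 3 of ML60218 the log2 fold change was -0.12. SRP9 was at 512.9, 515.7 and 528.7 CPM in siControl and at 501.4, 514.5 and 492.3 in siPOLR3A, which overlapped (adjusted p = 0.109). It was at 601.3, 601.6 and 592.1 CPM in DMSO and at 522.6, 531.2 and 485.4 in ML60218 (log2 -0.22, SE 0.038), with no overlap. SRP54, which recognises the signal peptide, rose by 0.08 and fell by 0.16, and SRP68 fell by 0.11 and by 0.12 on the log2 scale. The rise of SRP54 after siPOLR3A was lost without siControl replicate 1 or siPOLR3A replicate 1 or 2 (adjusted p between 0.063 and 0.124). The falls of SRP14, SRP19, SRP54 and SRP68 after ML60218 lost their call under scaling to total counts (log2 from -0.12 to -0.03). Among those, SRP14 also lost it without any single DMSO library or ML60218 replicate 2, SRP19 with DESeq2 and without any single DMSO library or ML60218 replicate 1, SRP54 without DMSO replicate 2 and SRP68 without DMSO replicate 1, with adjusted p between 0.05 and 0.12. Among 7 genes of the receptor and translocon that the particle docks to, SRPRA, the receptor subunit that pairs with SRP54, rose by 0.98 (SE 0.025) after siPOLR3A and fell by 0.27 after ML60218, and SEC63 fell by 0.63 after siPOLR3A.

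In the 7SK particle, MEPCE caps 7SK RNA, LARP7 protects its end, HEXIM1 and HEXIM2 inhibit the kinase, and P-TEFb itself consists of CDK9 with cyclin T1 (CCNT1) or cyclin T2 (CCNT2). After siPOLR3A 2 of these 7 mRNAs rose and 3 fell, and after ML60218 1 rose and 2 fell. Over all genes tested 27.9% rose and 29.7% fell after siPOLR3A, and 18.6% and 21.3% after ML60218. The kinase rose with the siRNA: CDK9 was at 28.4, 25.8 and 29.2 CPM in siControl and at 39.7, 37.3 and 39.4 in siPOLR3A (log2 0.48, SE 0.049, adjusted p = 3.96e-07). After ML60218 it was at 30.2, 29.5 and 31.5 CPM against 31.9, 33.2 and 34.7 in DMSO, and this did not pass the test (adjusted p = 0.0658). LARP7 was at 85.1, 82.4 and 81.7 CPM in siControl and at 63.8, 67.8 and 65.2 in siPOLR3A (log2 -0.34, SE 0.032, adjusted p = 1.86e-07), whereas its DMSO libraries (94.7, 91.9 and 92.2) and ML60218 libraries (93.7, 88.8 and 88.3) overlapped.

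The inhibitor protein HEXIM1 had the largest fall of all 36 members after ML60218. It was at 87.4, 91.6 and 91.7 CPM in DMSO and at 68.1, 54.0 and 55.7 in ML60218, a 1.52-fold fall (log2 -0.61, SE 0.084, adjusted p = 0.00132). In the siRNA experiment HEXIM1 was at 62.7, 66.0 and 62.1 CPM in siControl and at 76.1, 73.1 and 76.8 in siPOLR3A (log2 0.24, SE 0.034, adjusted p = 1.36e-05). The direction of HEXIM1 thus differed between the experiments, and no libraries overlapped in either. The capping enzyme MEPCE was at 72.3, 72.0 and 74.0 CPM in DMSO and at 56.0, 58.2 and 54.9 in ML60218 (log2 -0.37, SE 0.039, adjusted p = 0.000136). It was at 53.8, 55.5 and 53.8 CPM in siControl and at 50.9, 48.6 and 52.2 in siPOLR3A (log2 -0.11, adjusted p = 0.0192), a call lost without siControl replicate 2 or siPOLR3A replicate 2 (adjusted p = 0.071 and 0.093). CCNT1 rose by 0.18 after ML60218, a call lost without DMSO replicate 1 or 3 (adjusted p = 0.052 and 0.057) and on removal of GC and length trends (log2 0.07). CCNT2 fell by 0.11 after siPOLR3A, and this too was lost on that removal (log2 -0.02). CCNT2 had a log2 fold change of 0.15 after ML60218 (adjusted p = 0.0565) and was called higher under 6 alternatives, among them without ML60218 replicate 1. HEXIM2, the scarce paralogue of HEXIM1 with 100 to 202 reads in a library, passed the test in neither comparison, and after ML60218 (log2 0.30, adjusted p = 0.0702) it was called higher under 4 alternatives. Among 19 other genes of P-TEFb's active partners, 9 rose and 6 fell after siPOLR3A, and 4 rose and 6 fell after ML60218. Of the 19, 78.9% were called after siPOLR3A, against 57.7% of all genes tested, and 52.6% after ML60218, against 39.9%. AFF1, a scaffold of the super elongation complex, fell by 0.62 after siPOLR3A and rose by 0.15 after ML60218.

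La (SSB) and Ro (RO60), which bind many different Pol III RNAs, were not called after siPOLR3A. SSB was at 511.1, 540.5 and 538.5 CPM in siControl and at 542.0, 545.2 and 544.1 in siPOLR3A (log2 0.04, SE 0.024, adjusted p = 0.215). RO60 was at 235.0, 224.4 and 230.4 CPM in siControl and at 227.5, 227.5 and 235.3 in siPOLR3A (log2 0.00, SE 0.025, adjusted p = 0.981). Neither passed the test here. SSB was called higher under upper quartile scaling (log2 0.10), total counts (0.09) and removal of GC and length trends (0.11, adjusted p = 0.000755), and RO60 under upper quartile scaling and that removal (0.06 in each, adjusted p = 0.0397 and 0.0403). After ML60218 SSB was at 525.5, 514.4 and 489.6 CPM against 545.7, 568.7 and 563.6 in DMSO (log2 -0.13, SE 0.036, adjusted p = 0.0132), a call lost without DMSO replicate 2 or 3 (adjusted p = 0.069 and 0.055) and under scaling to total counts (log2 -0.06). RO60 was at 219.5, 213.1 and 226.8 CPM in ML60218 and at 218.5, 208.3 and 204.1 in DMSO, which overlapped (adjusted p = 0.196). RO60 was called higher after ML60218 under upper quartile scaling (log2 0.11) and total counts (0.14), against 0.06 here.

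The vault is a large hollow particle formed by many copies of the major vault protein MVP, with TEP1 and PARP4 inside. All 3 vault mRNAs fell after siPOLR3A, as did 29.7% of all genes tested. MVP was low in these cells, with 53 to 153 reads in a library, at 3.2, 3.0 and 2.9 CPM in siControl and 1.9, 1.6 and 1.5 in siPOLR3A (log2 -0.86, SE 0.144, adjusted p = 8.95e-05). An offset for the length of the isoforms in use gave -1.36 in place of -0.86. PARP4, an ADP-ribosyltransferase, was at 72.5, 74.2 and 71.3 CPM in siControl and at 54.5, 58.0 and 57.0 in siPOLR3A (log2 -0.36, SE 0.033, adjusted p = 1.31e-07). TEP1, which binds vault RNA and also telomerase RNA, was at 26.9, 28.3 and 24.2 CPM in siControl and at 22.9, 23.8 and 23.0 in siPOLR3A (log2 -0.19, SE 0.056, adjusted p = 0.00989), a call lost without siControl replicate 2 (adjusted p = 0.059).

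After ML60218 TEP1 rose, from 20.3, 20.5 and 17.8 CPM in DMSO to 22.7, 23.0 and 25.8 in ML60218 (log2 0.29, SE 0.072, adjusted p = 0.00911). MVP was at 2.8, 2.8 and 2.5 CPM in DMSO and at 3.7, 2.9 and 3.3 in ML60218 (adjusted p = 0.106), without overlap but with few reads. PARP4 was at 66.7, 67.5 and 70.1 CPM in DMSO and at 70.1, 70.2 and 68.3 in ML60218, which overlapped (adjusted p = 0.555).

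Set side by side, 10 of the 36 members (27.8%) rose after siPOLR3A and fell after ML60218, against 7.72% of 15447 genes tested in both. Falls in both were called for 5 members (13.9%, against 7.75% of genes), a fall after siPOLR3A with a rise after ML60218 for 1 (TEP1, 2.78%, against 6.54%), and neither change for 5 (13.9%, against 28.4%). The members were chosen with earlier results of these data known, and the other genes were not matched to them in read number. These shares are therefore no independent support for a trait of the members. The 10 were POP1, POP7, RPP14, RPP25, SRP54, LSM3, LSM5, LSM6, LSM7 and HEXIM1, and the 5 that fell in both were LSM2, MEPCE, SRP14, SRP19 and SRP68. Among the 10, the siPOLR3A calls of LSM5 and SRP54 were each lost under 5 alternatives, and those of POP7 and RPP25 each under 1. The ML60218 calls of SRP54 and LSM3 were lost under 5 and 1. Among the 5 that fell in both, MEPCE lost its siPOLR3A call under 6 alternatives. The ML60218 calls of SRP14 and SRP19 were lost under 6 and 8. SRP68 lost its siPOLR3A call under 2 and its ML60218 call under 3, and LSM2 lost neither call where it was tested. The difference of the effects, siPOLR3A minus ML60218 in a single edgeR quasi-likelihood fit of all libraries, was called for 28 members, 18 above 0 and 10 below. Over 16032 genes 51.9% were called, with 25.1% above 0 and 26.8% below. The largest differences above 0 were those of LSM3 (log2 1.12, SE 0.128, adjusted p = 3.59e-05) and LSM7 (1.08, SE 0.100), and the largest below 0 those of RPP25L (-1.20, SE 0.092, adjusted p = 1.52e-08) and MVP (-1.14, SE 0.186). LSM2, which fell in both experiments, still differed by -0.96 (SE 0.072). Agent, duration and control group all differ between the experiments and cannot be told apart in the difference.

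Levels within a particle were unequal. On the length-corrected TPM scale, the mean ± SD of 3 siControl libraries was 623.4 ± 26.1 for SRP9 and 204.0 ± 11.1 for its partner SRP14, against 65.0 ± 2.43 for SRP54. In the LSM ring it was 147.0 ± 3.83 for LSM4, 110.8 ± 6.17 for LSM7, 62.5 ± 0.690 for LSM2 and 21.05 ± 1.29 for LSM3, the lowest of the ring. This order depends on transcript length. The single matched LSM3 transcript has 3359 bases in the deposited table, against 491 for the LSM7 transcript with the highest TPM. In CPM, LSM3 lay above LSM2, LSM6 and LSM7 in siControl. In siPOLR3A, LSM2 was at 26.8 ± 1.24 TPM and LSM7 at 178.5 ± 6.19, so that these ring partners were further apart than in siControl. CDK9 was at 22.8 ± 2.44 TPM beside 22.6 ± 0.582 for HEXIM1, a pair that did not differ beyond its spread, and HEXIM2 was at 3.87 ± 0.365. SSB was at 451.3 ± 9.58 TPM, RO60 at 49.7 ± 4.24, and MVP, at 2.59 ± 0.335, was the lowest of the 36.

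The controls of the experiments were not at the same level. Mean TPM was higher in DMSO than in siControl for 29 of the 36 members. The share over all genes was not computed, so this count cannot be read as particular to the members. TPM was used as deposited, without scaling between the experiments. LSM3 was at 44.8 ± 1.44 in DMSO against 21.05 ± 1.29 in siControl. LSM7 was at 209.8 ± 8.65 TPM in DMSO and at 110.8 ± 6.17 in siControl, and POP1 at 14.9 ± 0.696 and 9.02 ± 0.293. For these 3 mRNAs the siPOLR3A mean (32.3, 178.5 and 13.2 TPM) lay between the 2 control means. The controls differ in transfection, vehicle and duration, and the labels do not say whether they share a batch or a stock of cells. These differences cannot be told apart.

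**Figure D3:**
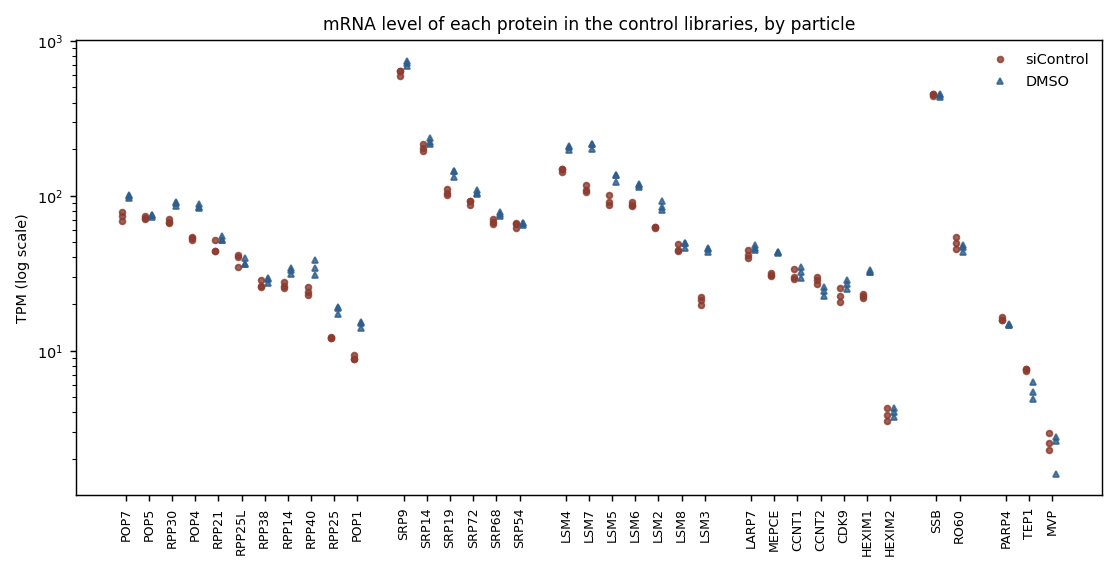
TPM (log scale) of each member in the 3 siControl libraries (circles) and the 3 DMSO libraries (triangles), ordered by level within each particle. SRP9 and SSB are the highest and MVP the lowest, and LSM3 and LSM7 are higher in DMSO than in siControl.

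The 3′ untranslated regions of members that fell after siPOLR3A were searched for GAGGGA and GACGTA, hexamers chosen with earlier results of these data known, so the counts are no independent support for any pattern. The sequence of the siRNAs is not given in the sources used here. Sites of RPP25L, SRP19 and SRP72, which fell, and of LSM3, which rose, are shown in windows of 30 bases from GENCODE 29 transcripts (GRCh38), with the hexamer in capitals.
RPP25L site, chr9:34610512-34610541, minus strand: aagaggtccaggGAGGGAtttaggaaataa
SRP19 site, chr5:112867487-112867516, plus strand: cttcaacaaggaGAGGGAagtaaaaaaggg
SRP19 site, chr5:112867594-112867623, plus strand: taatttgtatcgGAGGGAaacagaagcttt
SRP72 site, chr4:56502322-56502351, plus strand: tcatgtgataaaGAGGGAccttcttaatac
LSM3 site, chr3:14199005-14199034, plus strand: gagaaaggggcaGAGGGAcattgtaaacat
LSM3 site, chr3:14200212-14200241, plus strand: aagatacaagggGAGGGAcaataaaaggtt
LSM3 site, chr3:14200264-14200293, plus strand: tgtcaggaaatgGAGGGAggggaggcaatg
For each gene a single transcript was searched, that with the highest mean TPM in the GENCODE sequence set. For LSM2 and RPP21 it was a primary-assembly transcript. The copies on alternative haplotypes, with 99.5% and 99.8% of the reads of these genes, were not searched. In 32 of the 36 members the transcript searched had an annotated region. GAGGGA was found in 6 of the 12 of them that fell after siPOLR3A (RPP25L, SRP19, SRP72, MEPCE, CCNT2 and TEP1), in 3 of the 12 that rose (RPP25, LSM3 and CDK9) and in 1 of the 8 others (CCNT1). LSM2, MVP, LARP7, PARP4, SRP14 and SRP68 fell without a match in the transcript searched. RPP30 also fell, and the transcript chosen for it had no annotated region to search, while its other transcripts were not searched. Over all genes tested with such a region, 41.4% of those called lower held it, 29.7% of those called higher and 30.3% of those not called. Among genes lower by at least 2-fold the share was 68.4% (186 of 272). The median length of the region was 1210, 1016, 897.5 and 1294.5 bases in these 4 classes, and its part in the shares was not tested. GACGTA was found in 0 of the 32 members searched, against 3.64% of all genes. The annotated transcript was within 5% of the length in the deposited table for 28 of the 36 members, and LSM3 is among those where it was not.

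Shares of single transcripts in a gene's TPM were estimates and were not tested. The coding transcript CCNT2-201 took 19.6%, 21.8% and 17.8% of CCNT2 in siControl and 8.6%, 8.2% and 0.0% in siPOLR3A, while CCNT2-202 took 16.9%, 17.6% and 20.4% and then 26.9%, 25.8% and 34.8%. In SRP19 the share of the coding transcript SRP19-203 was 9.4%, 7.8% and 8.1% in siControl and 15.1%, 14.7% and 15.9% in siPOLR3A, as the gene as a whole fell. For POP1, whose mRNA rose, POP1-202 took 82.2%, 76.4% and 83.5% in siControl and 68.5%, 74.1% and 62.6% in siPOLR3A. HEXIM2-207 took 42.4%, 37.3% and 37.4% of HEXIM2 in DMSO and 19.3%, 13.7% and 14.8% in ML60218, where the gene had at most 202 reads. LSM3, RPP25 and HEXIM1 each had a single matched transcript, so a shift between isoforms could not be seen for them.

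Other proteins that act with the same RNAs were followed as 72 genes in 9 lists, of which 26 rose and 23 fell after siPOLR3A and 11 rose and 36 fell after ML60218. After siPOLR3A 68.1% of the 72 were called, against 57.7% of all genes tested, and after ML60218 65.3%, against 39.9%. Over all genes 27.9% rose and 29.7% fell after siPOLR3A, and 18.6% and 21.3% after ML60218. The medians of the 72 were 0.00 and -0.10 on the log2 scale. LSM1, which replaces LSM8 in the cytoplasmic ring that starts mRNA decay, fell in both experiments, by 0.42 (SE 0.045) and 0.37 (SE 0.050), whereas LSM11 of the U7 ring rose in both, by 0.36 and 0.23. Among 10 other U6 and tri-snRNP proteins, 3 rose and 2 fell after siPOLR3A, and 1 rose and 7 fell after ML60218, where SNU13 fell by 0.32. TUT1, which adds U residues to U6, fell by 0.27 after siPOLR3A and rose by 0.24 after ML60218.

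Of 7 other proteins that bind 7SK RNA, the splicing factor SRSF2 fell by 0.51 (SE 0.044) after ML60218 and had a log2 fold change of 0.00 after siPOLR3A, and DHX9 rose by 0.45 and fell by 0.18. Among 9 Y RNA-binding proteins, HNRNPK fell by 0.54 (SE 0.027) after siPOLR3A and YBX1 and PTBP1 rose by 0.32 and 0.29, and these 3 fell by 0.13, 0.11 and 0.28 after ML60218. Of 5 other La-related proteins, LARP1B fell by 0.42 after siPOLR3A and LARP6 rose by 0.35 after ML60218. Among 6 genes of tRNA end processing and mitochondrial RNase P, which works without RNA, TRMT10C fell by 0.56 (SE 0.033) after ML60218 with a log2 fold change of -0.03 after siPOLR3A, and TRNT1, which adds the CCA end, rose by 0.47 after siPOLR3A. The ribosomal proteins RPL5 and RPL11, which carry 5S RNA, fell by 0.13 and 0.16 after ML60218, and the 5S transcription factor GTF3A fell by 0.11 after siPOLR3A.

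Pseudogenes named after them exist for 10 members, among them LSM3, SRP14, SRP72, SRP9, LARP7 and PARP4, and reads could have been split with these copies. A gene on the opposite strand overlaps 17 members, among them SRP19, LSM3, LSM7 and SSB. The library kit keeps strand, but whether the quantification used it is not given in the sources used here, so reads of such partners may not be told apart. On the same strand RPP14 overlaps HTD2, RPP21 the read-through gene that joins it to TRIM39, CDK9 a pair of microRNA genes, SRP19 the pseudogenes XBP1P1 and ZRSR2P1 and a gene known only by a clone name, and LSM6 and MVP each another such gene.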

How the data were processed

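Groups and replicate numbers came from sample titles. Per the file headers, the deposited table gives for 194142 transcripts and each library the estimated count and the TPM of the authors' quantification, in columns of the kind salmon writes; program version and options are not given in the sources used here. Per the submitters' processing notes, bcl2fastq 2.20, Trim Galore, DESeq2 and hg38 were used. The deposited transcript length and effective length (other) served the length offset.

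Transcripts were matched to GENCODE 29 genes on the primary assembly (158359) or, for further copies, through GENCODE's symbol table (10510); 25273 without a match, with 6.127% to 6.614% of the reads, were left out. The design assumed gene counts, so the estimated counts of a gene's transcripts were added and rounded. In edgeR 4.0.16 (R 4.3.3) genes were filtered with filterByExpr (minimum count 10, total 15), scaled by TMM, and compared with the robust two-sided quasi-likelihood test, each comparison on its 6 libraries and the difference of effects on all 12, with Benjamini-Hochberg adjustment over all genes. Steps were tested on simulated data. With 3 against 3 an exact permutation test cannot go below 0.1. CPM used TMM factors; the SE is the fold change divided by the root of F.

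The members and lists were chosen with earlier results of these data known. Library values are given for the 4 members of a group with the smallest p in either comparison, for all members of smaller groups and for called members with a log2 change of at least 0.5; other lists name up to 3 genes by smallest p. The transcripts, motifs and promoters shown beyond this rule were picked after their values were seen. Promoters are from RefSeq and 3′ regions from GENCODE. Alternatives covered scaling, DESeq2 1.42.0, filters, a replicate block, transcript matching, offsets, a shared fit and leaving out each library.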

Additional observations from a re-analysis of the deposited data

Results flagged for a closer look

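Members whose change was called in both experiments with opposite directions, and whose difference of effects was itself called in a single edgeR fit of all 12 libraries, are listed here as siPOLR3A minus ML60218 on the log2 scale. In the U6 ring the difference was 1.12 for LSM3, 1.08 for LSM7, 0.66 for LSM6 and 0.31 for LSM5. In RNase P and RNase MRP it was 0.78 for POP1, 0.70 for RPP25, 0.57 for POP7 and 0.50 for RPP14. It was 0.86 for HEXIM1, 0.25 for SRP54 and -0.47 for TEP1. Agent, duration and control group all differ between the experiments.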

How the results depend on the processing

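Totals of genes and of members called, over both directions together, stayed within 1.5 times under every alternative run. Counts in a single direction moved more after ML60218: with total counts 1992 genes were called lower (against 3350) and 7 members higher (against 2), and with upper quartile scaling 6 members higher. A call was gained under at least 1 alternative by 5 members after siPOLR3A and by 9 after ML60218. Leaving out each library in turn gave 8354 to 8708 genes and 21 to 25 members called after siPOLR3A, 4439 to 6801 and 18 to 25 after ML60218, and 7776 to 8566 and 28 to 29 for the difference. Same-numbered libraries did not deviate together (correlations of deviations from -0.04 to 0.03 for siPOLR3A and from -0.07 to -0.02 for ML60218). These values cannot decide whether the samples were paired, because a small shared effect could go unseen beside the noise of single libraries. With the replicate number as a block (replicate block), 8872 genes and 25 members were called after siPOLR3A, 5724 and 21 after ML60218 and 7980 and 28 for the difference. The block left SRP19 after ML60218 uncalled (log2 -0.10, adjusted p = 0.076) and changed no other member's call there. Restricting the matching to the primary assembly was chosen after seeing the data.

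Changes of sign occurred in log2 fold changes that had not been called, and the cause was not tested. After siPOLR3A, upper quartile scaling gave 0.014 for RPP40, 0.017 for SRP9, 0.036 for LSM8 and 0.017 for CCNT1, and total counts gave 0.0018, 0.0053, 0.024 and 0.0046. DESeq2 gave -0.00086 for RO60, no filter -0.0052 for RO60 and -0.00036 for LSM4, the isoform length offset -0.081 for POP4, 0.00017 for RPP40 and -0.0304 for SSB, and removal of GC and length trends 0.024 for SRP9, -0.069 for LSM4, 0.039 for LSM8 and 0.039 for CCNT1. After ML60218, upper quartile scaling gave 0.024 for LSM8 and 0.00022 for LARP7, total counts 0.053 and 0.029, the length offset -0.017 for MVP, and removal of the trends -0.034 for RPP38, -0.0500 for SRP72, -0.0036 for RO60 and -0.042 for PARP4. In the difference, LSM8 was 0.0024 with RLE factors, 0.013 with upper quartile scaling, 0.00203 with DESeq2, 0.024 with the length offset and 0.13 without the trends. SRP14 was -0.026 with total counts, -0.00074 without a filter and -0.0018 with neighbouring transcripts, SRP68 was -0.015 with total counts, and RPP30 and RO60 were 0.0302 and 0.069 without the trends. Leaving out single libraries gave -0.018 to 0.014 for RO60, -0.022 to 0.029 for LSM4 and -0.021 to 0.032 for POP4 after siPOLR3A, -0.055 to 0.011 for LSM8, -0.0055 to 0.045 for SRP72 and -0.028 to 0.063 for RPP38 after ML60218, and -0.078 to 0.063 for SRP14, -0.0063 to 0.023 for SRP68 and -0.032 to 0.0199 for LSM8 in the difference.

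Depth limits MVP and HEXIM2 most, at 53 to 202 reads in a library.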
